A study of Mus musculus with 50 samples.

Results

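The genes described here are 10 genes expressed by endothelial cells, the cells that line blood vessels: *Pecam1*, *Cdh5*, *Kdr*, *Flt1*, *Tek*, *Tie1*, *Vwf*, *Emcn*, *Esam* and *Sele*. They were taken by name and are 10 of the 21954 genes in the digit table. All 10 were measured in every comparison. They were followed in mouse digits after amputation through the terminal phalanx (P3), the last bone of the toe.

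In the first hours after wounding the endothelium becomes sticky for leukocytes and platelets, through adhesion molecules such as E-selectin (*Sele*) and through von Willebrand factor (*Vwf*), which it stores and releases. Later, new vessels sprout into the healing tissue under the control of the VEGF receptors (*Kdr*, *Flt1*) and of the angiopoietin receptor Tie2 (*Tek*) with its partner *Tie1*. PECAM-1 (*Pecam1*), VE-cadherin (*Cdh5*) and ESAM (*Esam*) hold neighbouring endothelial cells together, and endomucin (*Emcn*) covers the luminal surface of capillaries and venules.

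Bulk RNA-seq was made from the P3 wound bed of male C57Bl/6 mice aged 9 to 10 weeks, with no transgene or drug, and with wounds left unsutured. The non-regenerative digits (labelled NR) had lost 60 to 80% of P3 and comprised 29 digits at 9 time points between 0 hours and 21 days (5 times in the first 24 hours, then 3, 7, 14 and 21 days), with 5 digits at 7 days and 3 at each other time. Groups follow the labels, and 11 of the 29 non-regenerative digits were at 60 to 65%, a range that the study's text elsewhere places in the intermediate class. The intermediate digits (labelled Medium) had lost 41 to 55% and comprised 12 digits at 4 time points (0 and 24 hours, 14 and 21 days), 3 at each. The 0 hour digits were amputated and collected at once, so they stand for the tissue before any response. The labels give each digit a mark, a date and a side, but do not say what the mark means or which digits came from the same animal, so p-values measure the spread between digits. Because a digit is a mixture of tissues, fewer endothelial cells and less RNA per endothelial cell cannot be told apart in any value below.

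The digits held 1468749 to 13011782 expected counts each (median 6835347). Levels are given as normalized TPM (TPM values that the authors rescaled between libraries), a scale that takes out gene length. Whole profiles of 2 digits stood apart from their groups, as Spearman correlations with their own group show. Replicate 2 of the non-regenerative digits at 14 days correlated with its group at 0.638 to 0.680, and replicate 2 at 7 days at 0.673 to 0.744. In the 14 day digit *Tie1* and *Vwf* were the highest of all 41 digits, *Esam* ranked 2, and *Pecam1*, *Kdr*, *Tek*, *Emcn* and *Sele* ranked 41. These ranks are by normalized TPM. Summed over all genes, normalized TPM was 3.36e+06 in that digit, and 836756 and 939809 in the other 2 at 14 days. Levels in that digit are therefore on a larger scale. In counts rescaled by library (TMM-scaled CPM), *Tie1* was 97.5 there and 27.3 and 20.9 in the other 2, and *Vwf* 111 against 30.8 and 33.2. Results on the 10 genes and on the other lists that rest on the 2 digits that stand apart are given with and without them. The labels also carry a date for each digit, which fell into an earlier and a later period. Of the non-regenerative digits 16 were dated earlier and 13 later, and of the intermediate digits 8 and 4. Every digit of the non-regenerative 3 hour, non-regenerative 12 hour and intermediate 21 day groups was dated earlier, and every non-regenerative digit of 21 days later, so that date and time cannot be told apart there. What the date marks is not given in the labels.

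Of the 10 genes, 4 passed the test in at least 1 comparison: *Vwf*, *Tie1*, *Cdh5* and *Sele*. A gene was called where the adjusted p of edgeR's quasi-likelihood test was under 0.05 and the mean normalized count plus 1 differed more than 2-fold. The other 6 genes were called in none of the 22 comparisons. For these 6 no change was detectable by edgeR with this number and depth of digits.

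**Figure D1:**
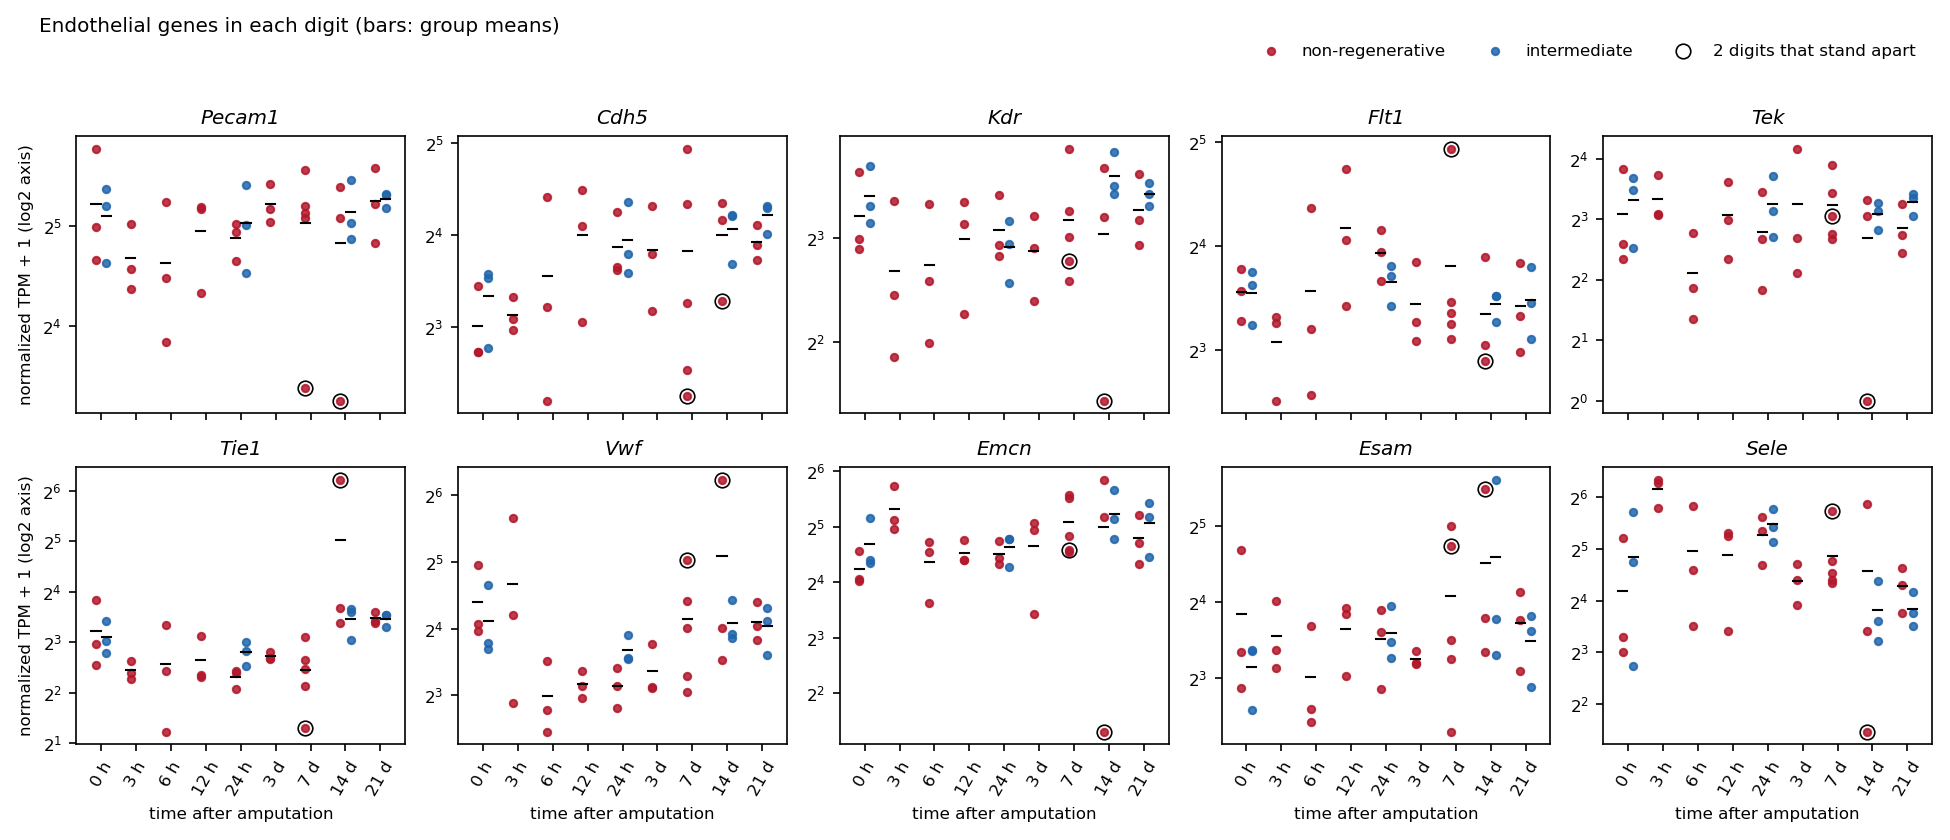
Normalized TPM plus 1 (vertical axis, log2 scale) of each of the 10 genes against time after amputation (horizontal axis, in order of sampling, not to scale). Each point is 1 digit, red for non-regenerative and blue for intermediate, bars are group means, and open black circles mark the 2 digits that stand apart. *Vwf* lies at 4.49 to 10.4 in all 9 non-regenerative digits from 6 to 24 hours, below the 3 digits at 0 hours (14.6 to 29.99).

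The genes lie on 8 chromosomes of the mouse genome (GRCm38). *Vwf* spans chromosome 6 from 125546774 to 125686679 on the plus strand, *Tie1* chromosome 4 from 118471191 to 118490061 on the minus strand, *Cdh5* chromosome 8 from 104101625 to 104144511 on the plus strand, and *Sele* chromosome 1 from 164048234 to 164057677 on the plus strand. *Cdh5* is the only one of the 10 that overlaps another annotated gene, the antisense gene Gm29682, and whether strand was used in counting is not given in the sources used here. The table of RefSeq promoters (GRCm38.p6) held an entry for 6 of the genes, *Kdr*, *Flt1*, *Tek*, *Tie1*, *Emcn* and *Sele*. The 250 bases before the RefSeq start of *Sele* and *Tie1* are shown because these are the 2 called genes with an entry, one inducible by inflammation and one a constitutive vessel receptor. The *Tie1* window lies mostly inside the gene span given above, whose start on the minus strand is 118490061. The 2 sources place that start differently, so most of the *Tie1* window is upstream of the RefSeq start only. Capitals mark the forms AGGAAG and CGGAAG, on either strand, of the site read by ETS factors, and the TATA box letters TATAAA. Many endothelial genes carry ETS sites, and other forms of the site were not searched.
Sele (chr1:164047984-164048233, plus strand): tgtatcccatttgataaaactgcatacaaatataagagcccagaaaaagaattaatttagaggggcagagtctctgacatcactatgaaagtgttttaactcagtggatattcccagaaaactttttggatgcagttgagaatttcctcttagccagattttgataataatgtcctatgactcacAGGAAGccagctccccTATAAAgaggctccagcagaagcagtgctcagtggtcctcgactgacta
Tie1 (chr4:118489850-118490099, minus strand): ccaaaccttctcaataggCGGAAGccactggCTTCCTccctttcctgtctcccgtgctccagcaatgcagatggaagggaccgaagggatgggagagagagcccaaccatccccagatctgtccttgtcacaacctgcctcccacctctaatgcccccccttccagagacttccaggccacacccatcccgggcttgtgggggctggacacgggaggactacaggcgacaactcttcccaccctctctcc

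The *Sele* window held 1 ETS match and 1 TATA box, and the *Tie1* window 2 ETS matches and no TATA box. At least 1 of the 2 ETS forms was found in 4 of the 6 windows (*Flt1*, *Tie1*, *Emcn* and *Sele*). A TATA box was found in 2 (*Flt1* and *Sele*). Among 32851 promoters of the same length, 29.5% held AGGAAG, 13.6% CGGAAG and 12.4% TATAAA on either strand. The share of promoters with at least 1 of the 2 ETS forms was not counted. Only a 10-letter form of the NF-κB site was searched in the same way. That form was found in none of the 6 windows and in 1.41% of all promoters. Other forms of the NF-κB site were not searched, so a window without this form may still hold such a site. The ETS and TATA box matches describe the letters in the windows and were tested against no binding data.

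*Vwf*, the carrier of platelet adhesion stored in endothelial granules, showed the clearest change among the 10 genes: it fell about 3-fold within 12 hours of a non-regenerative amputation. At 0 hours the 3 non-regenerative digits held 14.6, 15.8 and 29.99 normalized TPM. At 12 hours they held 6.82, 7.83 and 9.30, and at 24 hours 6.01, 7.86 and 9.61. No digit at either time reached the lowest digit at 0 hours. On the count scale *Vwf* was also without overlap, as were 5530 of 13075 genes at 12 hours and 5234 of 13420 at 24 hours. The labelled amputation levels were 62, 62 and 75% at 0 hours and 64, 64 and 67% at 12 hours, and their part in the change was not tested. In counts, the log2 change of *Vwf* was -1.65 ± 0.44 at 12 hours (SE, 3 against 3 digits, 3.15-fold lower, edgeR adjusted p = 0.0348) and -1.83 ± 0.43 at 24 hours (3.55-fold lower, edgeR adjusted p = 0.0246). At 12 hours *Vwf* was the only one of the 10 called, where 4.64% of 13075 genes were called lower (11.4% in either direction). At 24 hours *Vwf* and *Cdh5* were called, where 10.7% of 13420 genes were called in either direction. Leaving out 1 digit at a time, the calls held in 4 of 6 fits at 12 hours and in 4 of 6 at 24 hours, and the change in *Vwf* lay between -1.93 and -1.004 at 12 hours and between -2.11 and -1.18 at 24 hours. The call at 12 hours was lost without replicate 1 or 3 of 12 hours, at adjusted p = 0.106 and 0.113 by edgeR, and that at 24 hours without replicate 1 or 2 of 24 hours, at 0.0974 and 0.0721. Within the earlier dates *Vwf* was 29.99 in the 1 digit at 0 hours and 7.86 and 9.61 at 24 hours, and within the later dates 14.6 and 15.8 at 0 hours and 6.01 in 1 digit at 24 hours. With the period as a term in a fit of all 41 digits, the changes were -1.79 at 12 hours and -1.87 at 24 hours (edgeR adjusted p = 0.0455 and 0.0295).

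The fall was already of this size at 6 hours, where the digits held 4.49, 5.85 and 10.4 normalized TPM. Its change of -1.71 ± 0.59 did not pass the edgeR test (adjusted p = 0.122), and none of the 10 genes did at that time, where 4.85% of 13168 genes were called. *Vwf* was the only one of the 10 with an unadjusted p under 0.05 there, and DESeq2 called it. At 3 hours the digits were widely spread in normalized TPM, at 6.41, 17.4 and 49.6. In TMM-scaled CPM, a rescaling of the counts by library, the same digits were at 23.3, 36.7 and 37.7, a smaller spread, with a log2 change of -0.78 ± 0.43. The digit at 49.6 was the one with the fewest counts of all.

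Within a digit, the ratio of *Vwf* to *Pecam1* sets the gene against another gene of the endothelium. Both were also detected in macrophage cultures, and what other cells add to the ratio was not tested. This ratio was 0.513 to 0.598 at 0 hours, 0.274 to 0.336 at 6 hours, 0.191 to 0.410 at 12 hours and 0.203 to 0.325 at 24 hours in non-regenerative digits. The ratio lay below its range at 0 hours in all 9 digits from 6 to 24 hours, and *Pecam1* itself was called at no time. How many of all genes separate in this way as a ratio to *Pecam1* was not counted, so the separation is not shown to be particular to *Vwf*. At the other times the ratio was 0.280 to 1.57 at 3 hours, 0.186 to 0.359 at 3 days, 0.158 to 3.36 at 7 days, 0.320 to 8.63 at 14 days and 0.422 to 0.478 at 21 days. In intermediate digits it was 0.359 to 0.600 at 0 hours and 0.259 to 0.631 at 24 hours, which overlap, 0.445 to 0.480 at 14 days and 0.318 to 0.484 at 21 days.

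Platelets and their precursors also carry *Vwf* mRNA, and blood markers moved with it. The summed level of 6 platelet genes was 118 to 722 normalized TPM at 0 hours, 47.6 to 77.7 at 12 hours and 45.9 to 70.3 at 24 hours. At 24 hours 4 of the 5 platelet genes tested were called lower, with *Itga2b*, an integrin chain of platelets, at -2.91 (edgeR adjusted p = 0.0268). Among all 13420 genes tested, 690 were called lower (10.7% were called in either direction). The summed level of the 4 erythroid genes in the table was 1569 to 2859 at 0 hours and 50.4 to 280 at 24 hours. Their part in the fall of *Vwf* was not tested. At 21 days, where all digits were dated later, the platelet genes were at 38.9 to 78.9 and *Vwf* at 13.2 to 20.2.

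From the acute phase (6, 12 and 24 hours) to the late phase (7, 14 and 21 days) *Vwf* rose again in non-regenerative digits. It lay at 4.49 to 10.4 in the 9 acute digits (median 7.83) and at 7.32 to 74.0 in the 11 late digits (median 15.1). The log2 change was 1.28 ± 0.29 (2.43-fold, edgeR adjusted p = 0.00356). *Vwf* and *Tie1* were the 2 genes of the 10 called, both higher, where 5.92% of 14434 genes were called higher (9.7% in either direction). When the 29 digits were left out one by one, *Vwf* was called every time, at 1.03 to 1.60. Without both digits that stand apart the change was 0.97, with an edgeR adjusted p of 0.00398 but under the 2-fold threshold, so that neither gene was called.

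The values by date period were as follows. In the earlier-dated digits *Vwf* was 5.85 to 10.4 in 7 acute digits and 7.32 to 10.5 in 3 late digits, so the phases overlapped. In the later-dated digits it was 4.49 and 6.01 in 2 acute digits and 13.2 to 74.0 in 8 late digits, without overlap. With the period as a term in the fit of all 41 digits, the late against acute change was 1.501 (edgeR adjusted p = 0.000812). The earlier-dated late digits stem from 7 and 14 days only.

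**Figure D2:**
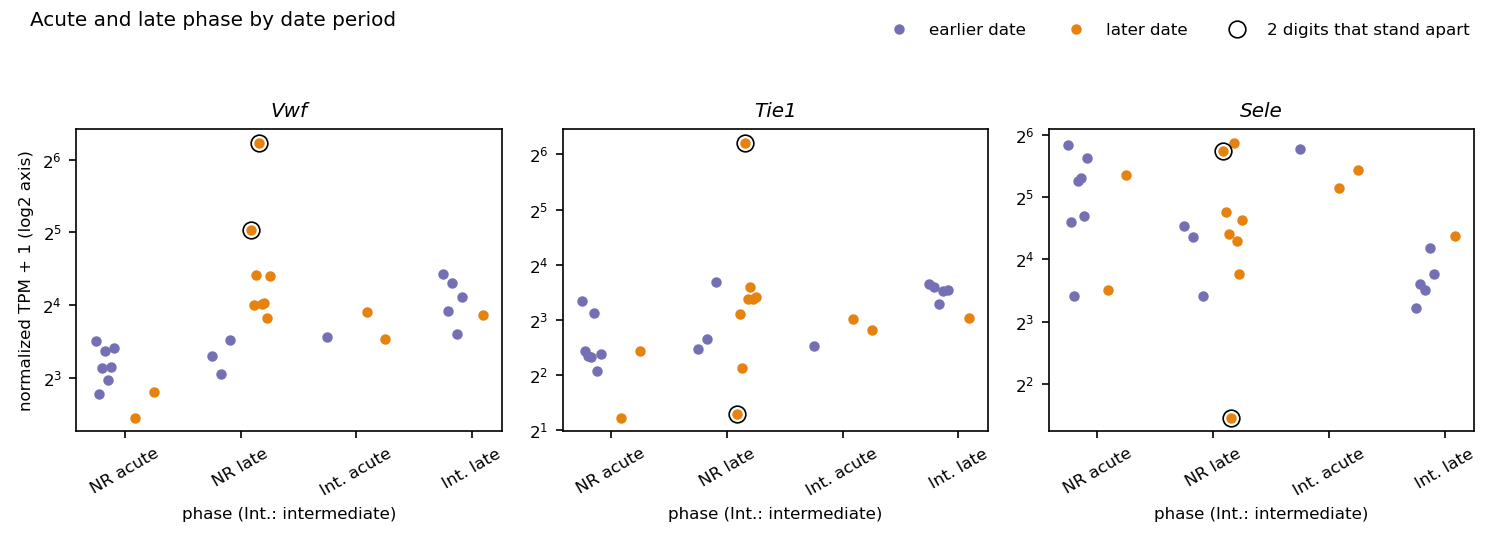
Normalized TPM plus 1 (vertical axis, log2 scale) of *Vwf*, *Tie1* and *Sele* in the acute and late phase of non-regenerative (NR) and intermediate (Int.) digits, 1 point a digit, by the period of the date in the labels. Open circles mark the 2 digits that stand apart. Late non-regenerative digits lie above acute ones for *Vwf* in the later period (13.2 to 74.0 against 4.49 and 6.01), and not in the earlier period (7.32 to 10.5 against 5.85 to 10.4).

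In intermediate digits the change in *Vwf* at 24 hours did not pass the test. They held 11.9, 12.8 and 24.3 at 0 hours and 10.7, 10.8 and 13.99 at 24 hours, with a change of -0.69 ± 0.33 (edgeR adjusted p = 0.347). None of the 10 genes was called at 24 hours against 0 hours in intermediate digits, and none had an unadjusted p under 0.05, where 0.0152% of 13172 genes were called. DESeq2 and limma also called none of the 10. Where 2292 of 13024 genes did not overlap on the count scale, the 3 intermediate digits at 24 hours lay above the 3 non-regenerative digits (6.01 to 9.61). That difference of 0.88 ± 0.26 had an unadjusted p of 0.00913 and an adjusted p of 0.349 in edgeR. The change from 0 to 24 hours did not pass the test of a difference between the groups, at 1.125 ± 0.66 (edgeR adjusted p = 0.9999), so a weaker fall in intermediate digits is not shown.

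Of the pair of angiopoietin receptor genes, *Tie1* was called higher late than acute in non-regenerative digits, and *Tek* was called in no comparison of times or groups. The difference between them was not tested. *Tie1* lay at 1.34 to 9.10 in the 9 acute non-regenerative digits (median 4.23) and at 1.46 to 72.9 in the 11 late digits (median 9.42), with a log2 change of 1.09 ± 0.33 (2.124-fold, edgeR adjusted p = 0.0271). It was also the only one of the 10 called as differing among the 9 times (edgeR F test, adjusted p = 0.0323), where 7.62% of 14434 genes were called. *Vwf* had an adjusted p of 0.0586 in that test.

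Both *Tie1* calls were lost when the 14 day digit that stands apart, with *Tie1* at 72.9, was left out, and also without some other digits. The other 2 digits at 14 days held 9.42 and 11.8, and the 3 at 21 days held 9.44, 9.70 and 11.1. Without that digit the late against acute change was 0.78 (edgeR adjusted p = 0.0701) and the F test gave an adjusted p of 0.301. The late call was also lost without replicate 3 of 6 hours, replicate 1 of 12 hours or replicate 1 of 24 hours, at adjusted p of 0.0591, 0.0609 and 0.0571 in edgeR, and the F test call without replicate 1 of 12 hours or replicate 1 or 2 of 24 hours, at 0.0581, 0.0637 and 0.0567. Without both digits that stand apart the change was 0.87 (edgeR adjusted p = 0.0120), below the 2-fold threshold, and the F test gave an adjusted p of 0.118. In the fit of all digits without these 2 the F test still called *Tie1* (edgeR adjusted p = 0.0366). Within the earlier dates *Tie1* was 3.19 to 9.10 in 7 acute digits and 4.55 to 11.8 in 3 late digits, and within the later dates 1.34 and 4.42 in 2 acute digits and 1.46 to 72.9 in 8 late digits, so the phases overlapped in both. With the period as a term the change was 1.36 (edgeR adjusted p = 0.00294).

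The levels of *Tie1* from 14 days on were above those at 3 to 24 hours in most digits. All 6 non-regenerative digits at 14 and 21 days lay at 9.42 or more, and among the 12 digits at 3, 6, 12 and 24 hours the highest was 9.10. This split of times is not the planned contrast, and the share of all genes separated by it was not counted. All digits at 21 days were dated later and all at 3 and 12 hours earlier. The 5 digits at 7 days lay lower, at 1.46, 3.36, 4.55, 5.25 and 7.58. At 0 hours they were at 4.83, 6.75 and 13.2, and the lowest group mean was at 24 hours, 3.95 ± 0.66 (SD, n = 3). At 24 hours *Tie1* did not overlap with 0 hours, a separation seen in 5234 of 13420 genes on the count scale. Its log2 change from 0 hours was -1.05 ± 0.41 (edgeR adjusted p = 0.1117). With the date period as a term in the fit of the 2 groups, chosen after seeing the data, it was -1.13 and was called (edgeR adjusted p = 0.0465, where 11.7% of 13420 genes were called). In intermediate digits *Tie1* was 4.77, 6.08 and 7.05 at 24 hours and 7.22 to 11.5 in the 6 late digits, also without overlap, with a change of 0.61 ± 0.21 (edgeR adjusted p = 0.0661). On the count scale 2319 of 14004 genes were without overlap in this contrast.

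*Tek*, the receptor for the angiopoietins, had no adjusted p under 0.05 in any comparison of times or groups. Its lowest group was 6 hours, at 1.54, 2.66 and 5.84 normalized TPM, against 4.08, 5.04 and 13.3 at 0 hours (log2 change -1.19 ± 0.57, edgeR adjusted p = 0.234). The 14 day digit that stands apart had 0 counts of *Tek*. *Angpt1*, the activating ligand of Tie2 and a perivascular product, was called higher late than acute in non-regenerative digits, at 1.87 (edgeR adjusted p = 0.0382).

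The VEGF receptors *Kdr*, which carries the growth signal, and *Flt1*, which also acts as a trap for the ligand, were called in no comparison. *Kdr* group means ranged from 5.42 ± 3.38 at 3 hours (SD, n = 3) to 11.01 ± 1.81 in intermediate digits at 14 days. Its smallest p was in intermediate digits, where 3 acute digits held 4.93 to 7.92 and 6 late digits 8.84 to 13.1, with no overlap, a change of 0.60 ± 0.19 and an edgeR adjusted p of 0.0546. In that contrast 2319 of 14004 genes did not overlap on the count scale. *Flt1* was highest at 12 hours, at 9.74, 15.6 and 25.6, with a change from 0 hours of 0.72 ± 0.32 (edgeR adjusted p = 0.142). In the late phase of non-regenerative digits *Flt1* had a log2 change of -0.50 ± 0.28 from the acute phase (edgeR adjusted p = 0.248). *Vegfa*, the ligand of both, had a late against acute change of -0.81 in non-regenerative digits (edgeR adjusted p = 0.0127) and missed the 2-fold threshold.

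Among the junction genes, *Cdh5* rose about 2-fold at 24 hours, while edgeR called *Pecam1* and *Esam* in no comparison. *Cdh5* held 5.63, 5.65 and 9.90 normalized TPM in non-regenerative digits at 0 hours and 11.2, 11.6 and 17.9 at 24 hours, without overlap. On the count scale *Cdh5* was among the 5234 of 13420 genes without overlap. Its log2 change was 1.014 ± 0.30 (2.02-fold, edgeR adjusted p = 0.0497), just inside the threshold. Of 6 fits that left out 1 digit, only the fit without replicate 1 of 0 hours called it, and edgeR adjusted p ranged from 0.0122 to 0.157. Neither fit of all 41 digits called it. The fit of the 2 groups with the date period as a term called it, at 0.84 (edgeR adjusted p = 0.0319).

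By edgeR no other time gave a call, and DESeq2 also called *Cdh5* at 12 hours (1.1198, DESeq2 adjusted p = 0.0282). In non-regenerative digits the change was -0.16 ± 0.53 at 3 hours, 0.65 ± 0.55 at 6 hours, 1.15 ± 0.39 at 12 hours (edgeR adjusted p = 0.0738), 0.93 ± 0.35 at 3 days and 1.010 ± 0.25 at 21 days. In intermediate digits it was 0.67 ± 0.33 at 24 hours, 0.77 ± 0.28 at 14 days and 0.94 ± 0.25 at 21 days, with adjusted p of 0.372, 0.282 and 0.102 in edgeR. These comparisons share the 0 hour digits of each group. The ratio of *Cdh5* to *Pecam1* was 0.182 to 0.231 at 0 hours and 0.379 to 0.571 at 24 hours in non-regenerative digits, and 0.245 to 0.305 and 0.409 to 0.497 in intermediate digits.

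*Cdh5* also went with the date. The difference between the periods was read, after seeing the data, from the fit of all 41 digits with the period as a term. The log2 difference of later- from earlier-dated digits was -1.06 for *Cdh5* (edgeR adjusted p = 0.00199) and -0.95 for *Tek* (adjusted p = 0.0482). These 2 of the 10 genes had an adjusted p under 0.05, where 8.23% of 14996 genes did. Without both digits that stand apart, *Pecam1* and *Emcn* joined them, at -0.42 and -0.66 (adjusted p = 0.0264 and 0.0109), where 19.7% of 15390 genes did. At 0 hours *Cdh5* was 9.90 to 10.9 in the 3 earlier-dated digits of both groups and 5.63 to 5.84 in the 3 later-dated. With the period in the fit of all 41 digits, the change of *Cdh5* at 24 hours was 0.70 in non-regenerative digits (edgeR adjusted p = 0.557) and 0.99 in intermediate digits (0.980).

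*Pecam1* had group means from 23.8 ± 11.9 at 6 hours (SD, n = 3) to 37.7 ± 2.08 in intermediate digits at 21 days. Its changes from 0 hours ran from -0.71 ± 0.31 at 3 hours to 0.18 ± 0.19 in intermediate digits at 21 days. *Esam* was lowest at 6 hours, at 4.35, 4.98 and 11.8, and its highest levels came from single digits, 43.7 in the 14 day digit that stands apart and 47.7 in 1 of the 3 intermediate digits at 14 days. On the count scale the latter digit was not high, at 10.9 TMM-scaled CPM (41 counts) beside 10.7 in another digit of its group that held 12.7 normalized TPM. DESeq2 called it higher late than acute in non-regenerative digits, at 1.004 (DESeq2 adjusted p = 0.0450). *Emcn* held 15.2, 15.7 and 22.6 at 0 hours and 30.002, 33.6 and 52.2 at 3 hours in non-regenerative digits. That difference, without overlap on this scale, had a log2 change in counts of only 0.78 ± 0.47 (edgeR adjusted p = 0.571). In intermediate digits *Emcn* was 0.65 ± 0.28 and 0.67 ± 0.26 above 0 hours at 14 and 21 days (adjusted p = 0.369 and 0.241).

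**Figure D3:**
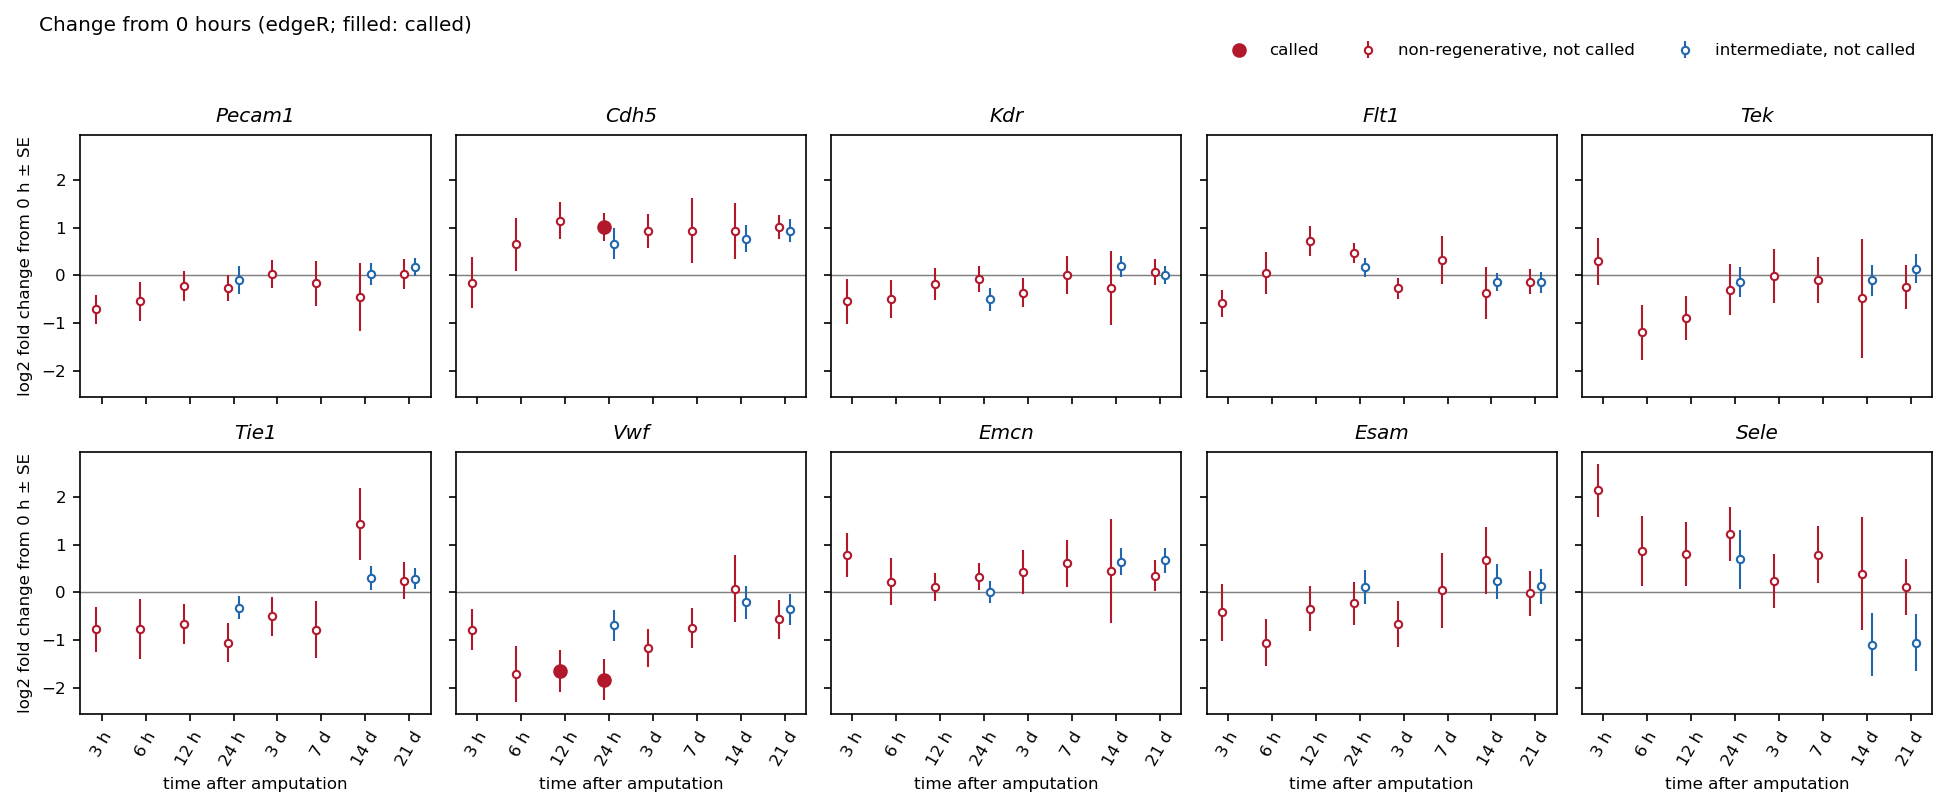
Log2 fold change from 0 hours with its SE (vertical axis) of each gene by time after amputation (horizontal axis), red for non-regenerative and blue for intermediate digits, from edgeR fits of the 2 groups compared. Filled points are called: *Vwf* at 12 hours (-1.65) and 24 hours (-1.83) and *Cdh5* at 24 hours (1.014).

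*Sele*, the leukocyte-capturing selectin that inflamed endothelium makes anew, was highest 3 hours after amputation and was called lower late than acute in intermediate digits. In non-regenerative digits it held 6.98, 8.78 and 36.1 normalized TPM at 0 hours and 54.3, 76.5 and 79.7 at 3 hours, without overlap. On the count scale *Sele* was among the 2591 of 12562 genes without overlap. The log2 change of 2.14 ± 0.56 had an unadjusted p of 0.00473 and an adjusted p of 0.309 in edgeR, where none (0%) of 12562 genes was called and 1362 had an unadjusted p under 0.05. DESeq2 called it (2.124, adjusted p = 0.0148) as 1 of 196 genes, and limma called none. All 3 digits at 3 hours were dated earlier, as was the 0 hour digit at 36.1, while those at 6.98 and 8.78 were dated later. The intermediate digits at 0 hours showed the same split, with 25.9 and 51.4 in the earlier-dated and 5.61 in the later-dated digit. With the period as a term in the fit of all 41 digits, the change of *Sele* at 3 hours in non-regenerative digits was 1.996 (edgeR adjusted p = 0.575). Over both groups, 8 of the 10 genes were higher in all 3 earlier-dated than in all 3 later-dated digits at 0 hours, a separation seen in 15.3% of 13533 genes.

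After 3 hours *Sele* spread widely, at 10.4 to 56.2 at 6 hours and 9.59 to 38.6 at 12 hours. It was 24.7 to 48.2 at 24 hours in non-regenerative digits and 34.4, 42.2 and 53.8 in intermediate digits. In intermediate digits the 14 day digits then held 8.26, 11.1 and 19.7, and the 21 day digits 10.3, 12.5 and 17.1. These late digits lay below all 3 acute digits, in a contrast where 2319 of 14004 genes did not overlap on the count scale. *Sele* fell by 1.77 ± 0.46 on the log2 scale (3.42-fold, edgeR adjusted p = 0.0252) and was the only one of the 10 called, where 2.04% of 14004 genes were called lower (5.86% in either direction). The call held in 6 of 12 fits that left out a digit. It was lost without replicate 2 or 3 of 14 days, replicate 1 or 3 of 21 days, or replicate 1 or 3 of 24 hours, and the change stayed at -2.001 to -1.58. In the 2 dated periods the late digits also lay below the acute ones, at 8.26 to 17.1 against 53.8 in the earlier and 19.7 against 34.4 and 42.2 in the later. With the period as a term in the fit of all 41 digits the change was -1.88 (edgeR adjusted p = 0.219). In non-regenerative digits the same contrast was -0.55 ± 0.43 (edgeR adjusted p = 0.428), with 57.3 in 1 digit at 14 days and 52.5 in the 7 day digit that stands apart. Whether this contrast differed between the groups was not tested.

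The ratio of *Sele* to *Pecam1* at 3 hours did not overlap with that at 0 hours, at 2.37 to 4.03 against 0.284 to 0.673 at 0 hours. At 24 hours it was 1.02 to 1.54 in non-regenerative and 1.29 to 1.55 in intermediate digits, and at 21 days 0.457 to 0.512 and 0.266 to 0.484. In the order of the 13 group means of each gene, 1 of 120 pairs of neighbours did not overlap, and it was the pair of *Sele* at 3 hours and the next highest group. The orders of all other neighbours stayed within the spread of the digits. Neither the share of such pairs nor that of such ratios to *Pecam1* was counted over all genes.

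Genes that work beside *Sele* in leukocyte capture were measured as a list of 6, of which 4 could be tested. At 12 hours 2 of the 4 were called, both higher: *Selp*, the platelet and endothelial selectin, and *Icam1*, the integrin ligand that arrests rolling leukocytes. The background shares were 11.4% of all genes at 12 hours and 10.7% at 24 hours. At 24 hours 1 of the 4 was called, *Selp*, which went from 4.90 ± 4.78 to 44.2 ± 30.7 normalized TPM (SD, n = 3 each, log2 change 3.65, edgeR adjusted p = 0.00837). Late against acute, *Selp* and *Icam1* were both called lower in non-regenerative digits, at -2.39 and -1.4998 (edgeR adjusted p = 0.00187 and 0.00121). *Vcam1*, another integrin ligand, was at 1.14 in the same contrast (edgeR adjusted p = 0.102). In intermediate digits the same 2 of the 4 were called lower late, *Selp* at -2.75 and *Icam1* at -1.44. Called lower late were 546 of 14434 genes in non-regenerative digits and 286 of 14004 in intermediate digits. The median log2 change of the 4 was -1.31 in non-regenerative digits, where the median of all genes was 0.06. With both digits that stand apart left out *Selp* was at -2.26 and *Icam1* at -1.42, both still called lower, and *Vcam1* was called higher, at 1.202 (edgeR adjusted p = 0.0495).

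Neutrophil transcripts, whose cells these molecules recruit, rose in the same window. All 6 neutrophil genes of a fixed list were called higher at 12 hours, where 884 of 13075 genes were called higher (11.4% in either direction). The summed level of the 6 was 20.4 to 25.2 normalized TPM at 0 hours and 408 to 1138 at 12 hours. Their part in the levels of *Sele* was not tested.

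A wider list of 22 other endothelial markers was measured beside the 10 genes. At 24 hours 21 could be tested and 1 was called, *Clec14a*, a vessel-specific lectin-like protein, which fell by 1.65 (edgeR adjusted p = 0.00975). The share called among all genes was higher, at 10.7%. At 12 hours 1 of 20 was called higher, the nitric oxide synthase *Nos3*, and 2 lower, *Clec14a* and *Cldn5*, where 11.4% of all genes were called. Late against acute in non-regenerative digits, 4 of 22 were called higher and 1 lower (*Nos3*), with a median log2 change of 0.53 where that of the 10 genes was 0.19 and that of all genes 0.06. *Clec14a* rose by 2.59, the apelin receptor *Aplnr* by 1.95 and the tight junction gene *Cldn5* by 1.93 (edgeR adjusted p = 7.94e-05, 0.00128 and 0.00302). The fourth was *Plvap*, a protein of capillary openings, at 0.93. The background share was 9.7%. Without both digits that stand apart 4 of 21 were called higher and 1 lower, where 11% of 14722 genes were called. *Clec14a* was then at 2.65, *Aplnr* at 2.09 and *Cldn5* at 1.48, all still called, while *Plvap* was at 0.56 and was not (edgeR adjusted p = 0.0718). In intermediate digits *Clec14a*, *Aplnr* and *Cd93* of the 22 were called higher and none lower, with a median of 0.37, where 5.86% of all genes were called. Summed over the 22 genes, levels were 228 to 427 normalized TPM at 0 hours, 208 to 248 at 24 hours and 234 to 437 at 21 days in non-regenerative digits, which overlap. The 14 day digit that stands apart was at 1336, on the larger scale of its values, and the other 2 at 14 days were at 326 and 400.4.

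Sprouting was followed by 8 tip cell genes. At 24 hours 1 of the 8 was called, *Apln*, the ligand of the apelin receptor, which went from 0.554 ± 0.254 to 4.99 ± 1.44 normalized TPM (SD, n = 3 each, log2 change 3.20, edgeR adjusted p = 0.00480), where 10.7% of all genes were called. The guidance receptor *Unc5b* was called higher late than acute in non-regenerative digits (1.2006, edgeR adjusted p = 0.00312), as was the basement membrane gene *Nid2* (1.21), against a background of 9.7%. *Unc5b* was at 0.88, under the 2-fold threshold, and *Nid2* at 1.42, still called, without both digits that stand apart. Of 7 pericyte genes, the cells that wrap capillaries, 2 were called higher late in non-regenerative digits and 4 in intermediate digits, with the PDGF receptor *Pdgfrb* at 1.76 in the former (edgeR adjusted p = 0.000263). Of 6 lymphatic endothelial genes, 2 were called higher and 1 lower late in non-regenerative digits, with the chemokine *Ccl21a* at 3.30 and the VEGF-C receptor *Flt4* at 1.76 (edgeR adjusted p = 0.00245 and 0.0416). The one that was lower, *Pdpn*, is also made by keratinocytes and fibroblasts, and it had risen by 3.75 at 24 hours. Of 8 ligands and partners of the endothelial receptors, 1 was called higher (*Angpt1*) and 1 lower late, *Tnfaip3*, a brake on NF-κB, at -2.25 (edgeR adjusted p = 0.00917). Without both digits that stand apart *Pdgfrb* was at 1.80, *Ccl21a* at 3.13, *Flt4* at 1.94, *Angpt1* at 1.99 and *Tnfaip3* at -1.93, all still called, and *Pdpn*, at -0.97, was under the 2-fold threshold. Without these digits 4 lymphatic genes were called higher and 0 lower, and 3 pericyte genes higher. Of the ligands and partners 3 were then called higher and 1 lower, and of the tip cell genes 2 higher. Among all 14722 genes 11% were called, in either direction. In intermediate digits the lymphatic growth factor *Vegfc* (2.52) and the VEGF co-receptor *Nrp1* (0.997) were called higher. The share called late against acute in intermediate digits was 5.86% of 14004 genes, in either direction.

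Other tissue moved in the same phases. Of 6 fibroblast genes, 4 were called higher late in non-regenerative digits and 4 in intermediate digits, with *Col1a1*, a chain of type I collagen, at 4.53 (edgeR adjusted p = 5.34e-08) in the former. Among all genes, 5.92% of 14434 were called higher late in the former, and 534 of 14004 in the latter. At 24 hours edgeR called the collagen genes *Col1a1*, *Col1a2* and *Col3a1* lower than at 0 hours in non-regenerative digits, at -1.40, -1.48 and -1.26. Of 7 macrophage genes, 4 were called higher late in non-regenerative digits, led by *C1qa* at 2.28. *Col1a1* was at 4.55 and *C1qa* at 1.60, both still called, without both digits that stand apart. In that fit 5 of the 7 macrophage and 4 of the 6 fibroblast genes were called higher, where 11% of 14722 genes were called in either direction. The summed level of the 7 macrophage genes was 2338 in the 14 day digit that stands apart, again on its larger scale, and 358 and 532 in the other 2. Among 6 keratinocyte genes 2 were called higher at 24 hours, *Dsg3* and *Krt14*, both of the epidermis, where 747 of 13420 genes were called higher. Their part in the levels of the endothelial genes was not tested.

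Some of these transcripts were also present in macrophage cultures. The series also holds 9 libraries of bone marrow-derived macrophages in culture (M0, M1 and M2, 3 each), in a table normalized separately, so levels are set side by side without a test. The cells came from female C57BL/6 mice, younger than the males that gave the digits. M1 cultures had IFN-γ and LPS for 24 hours, M2 cultures IL-4 for 24 hours, and M0 cultures neither. *Sele* and *Tek* were near 0 there, at 0.0246 to 0.970 and 0.148 to 1.15 normalized TPM against medians of 23.2 and 7.33 over the 41 digits. *Pecam1*, *Cdh5*, *Kdr*, *Vwf* and *Emcn* were all detected, for example *Pecam1* at 11.5 to 35.6 and *Vwf* at 5.52 to 14.4, against digit medians of 32.8 and 12.8. Of other endothelial markers, *Egfl7* was at 6.18 to 14.4, *Robo4* at 0.580 to 7.82 and *Erg* at 0.472 to 5.44 there. *Cldn5* was at 0 to 6.71 and *Sox17* at 0 to 2.37. Their digit medians were 46.6, 3.17, 5.39, 10.5 and 3.91. Whether macrophages or other cells in the cultures carried these transcripts was not tested. *Flt1* was 188 to 218 in M2 cultures, 0.837 to 1.86 in M0 and 1.05 to 1.36 in M1, against a median of 9.96 in digits. *Adgre1*, a defining macrophage marker, was at 573 to 1208 in the cultures and at a median of 2.83 in the digits.

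**Figure D4:**
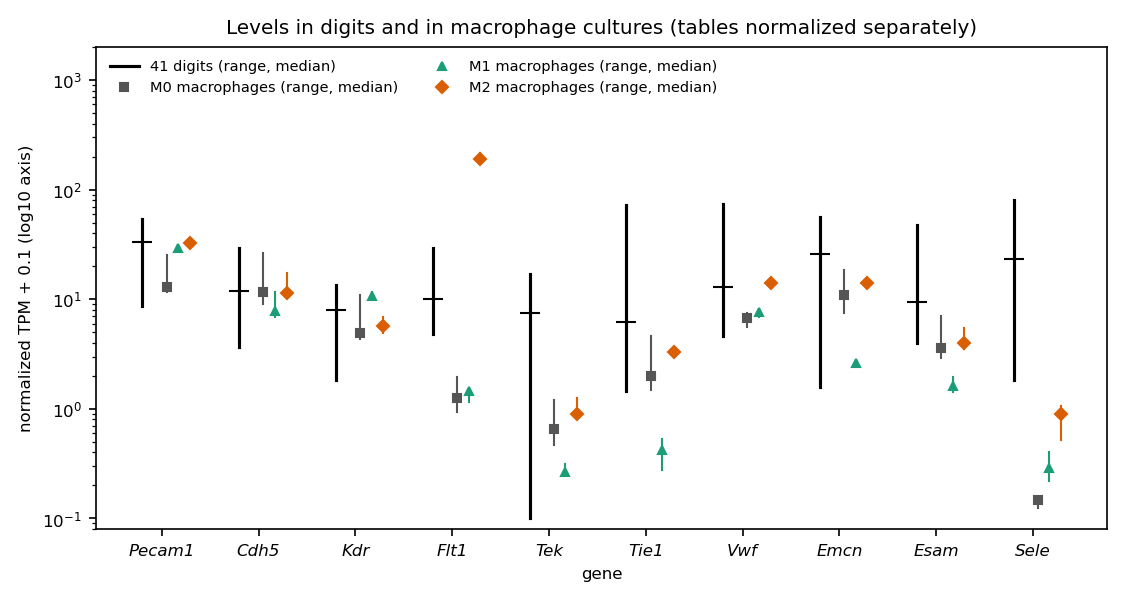
Normalized TPM plus 0.1 (vertical axis, log10 scale) of the 10 genes, as the range and median over 41 digits (black) and over 3 cultures each of M0, M1 and M2 macrophages (symbols with ranges). The 2 tables were normalized separately. *Sele* and *Tek* lie lowest in the macrophages relative to digits, and *Flt1* in M2 cultures (188 to 218) lies above every digit (highest 29.5).

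No difference between intermediate and non-regenerative digits passed the test in these genes. None of the 10 was called at 0 hours, 24 hours, 14 days or 21 days, where 0%, 0%, 0% and 0.648% of genes were called. At an unadjusted p under 0.05 there were 2 of the 10 at 24 hours, *Vwf* and *Tie1*, both higher in intermediate digits, and none at the other 3 times. DESeq2 and limma also called none of the 10. Over all genes 491, 1472 and 270 had an unadjusted p under 0.05 at 0 hours, 24 hours and 14 days, and DESeq2 called 17, 155 and 0 genes and limma 0 at each. The differences ran from -0.38 to 0.71 at 0 hours with SEs of 0.21 to 0.81, from -0.52 to 0.47 at 21 days with SEs of 0.17 to 0.37, and from -0.28 to 0.88 at 24 hours with SEs of 0.20 to 0.40. The largest SE at 0 hours was that of *Sele*, so that a 2-fold difference in it was not detectable. At 14 days, with the digit that stands apart, the SEs reached 1.202. The 3 tests of whether the change from 0 hours differed between the groups called none of the 10 genes and none (0%) of 14768 genes, with 452, 1581 and 190 genes at an unadjusted p under 0.05 at 24 hours, 14 days and 21 days and none of the 10 among them. DESeq2 called 7, 3 and 4 genes and limma 0, none of them among the 10.

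The remaining times gave no call either. Against 0 hours in non-regenerative digits, edgeR called 0.723% of genes at 3 days, 0.0537% at 7 days, 0% after 14 days and 0.452% after 21 days, and neither edgeR, DESeq2 nor limma called any of the 10. Over all genes at 14 days, 1044 had an unadjusted p under 0.05, DESeq2 called 354 and limma 5. At 3 days *Cdh5* and *Vwf* had unadjusted p under 0.05, and *Cdh5* did at 21 days. In intermediate digits 1.68% of genes were called at 14 days and 1.39% at 21 days, again without any of the 10, with *Cdh5* and *Emcn* at an unadjusted p under 0.05 at both times. The F test over the 4 intermediate times called 6.21% of 14004 genes and none of the 10, of which *Cdh5*, *Kdr*, *Emcn* and *Sele* had an unadjusted p under 0.05. DESeq2 and limma called none of the 10 there.

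The 10 genes varied together only loosely. Over 41 digits, which share tissue mixture and depth, the median Spearman correlation of log2 levels was 0.263 over the 36 pairs of the 9 genes other than *Sele* and 0.140 over the 9 pairs with *Sele*. Without the 14 day digit that stands apart these were 0.328 and 0.118, and with each gene also centred on its group 0.351 and 0.366, so that the gap between the pairs with and without *Sele* was not seen within groups. The genes most like the median of the 9 (each centred on its mean), ranked among 13681 genes by Spearman correlation over the 41 digits, were *Man1a* (0.827), *Pdgfra* (0.781), *Cd93* (0.771), *Fli1* (0.765) and *Adgrf5* (0.765), followed by *Ptprm*, *Arhgap31*, *Farp1*, *Lpar1* and *Gypc* (0.762 to 0.747). *Cd93* was on the list of endothelial markers, and *Pdgfra*, the receptor of mesenchymal cells, on the fibroblast list. These are descriptions with no test.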

How the data were processed

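The authors aligned single-end reads of poly(A) libraries to mouse genes (Ensembl 75, mm10) with Bowtie and estimated expected counts and TPM per gene with RSEM 1.2.3. The deposited expected counts were rounded and tested here. The normalized TPM values, unit signal, were deposited by the authors after median-by-ratio scaling, digits and macrophages apart, and were used for levels only. Reads shared by similar genes are divided by the model, so counts need not be whole.

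edgeR 4.0.16 (R 4.3.3) quasi-likelihood tests used filterByExpr and TMM on the 2 groups compared, all time points of 1 group (phase contrasts and F tests) or 24 digits (interactions), with Benjamini-Hochberg adjustment over all genes. EBSeq, which the authors used, was not available here, and their 2-fold threshold on the mean normalized count plus 1 was kept. The scripts were tested on simulated data. Alternatives were DESeq2 1.42.0, its size factors, limma 3.58.1 on log2 of normalized TPM plus 1, no count filter, all digits in 1 fit, the date period as a term, no fold threshold and leaving out each digit. Groups came from the labels. All 10 genes are named, and of each other list at most the 3 genes with the smallest p in the F test over non-regenerative times. *Nos3*, *Plvap*, *Cd93*, *Nid2*, *Vegfc* and *Nrp1* fall outside that rule and were named after their values were seen, because few genes of their lists were called. *Egfl7*, *Robo4*, *Erg*, *Sox17* and *Adgre1* were named only for their levels in the macrophage cultures. The members and lists were chosen with earlier results of these data known. Counting error limits single levels: a count of 0 allows up to 3 counts.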

Additional observations from a re-analysis of the deposited data

Results flagged for a closer look

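*Flt1* and *Sele* each had 1 digit far above the other 4 at 7 days in the non-regenerative group, at 29.5 and 52.5 normalized TPM, by Dixon's test of the gap over the range (0.889 and 0.797 against a critical value of 0.71). Both were the same digit, replicate 2, whose whole profile stands apart. The test was made for the 10 genes in the single group of 5 digits, and chance flags about 1 in 20 groups.

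*Flt1* stood at a mean of 198 ± 16.96 normalized TPM (SD, n = 3) in M2 macrophage cultures, which were treated with IL-4 and enter no comparison of digits, against 1.28 ± 0.521 in M0 cultures.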

How the results depend on the processing

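No paired analysis was possible because the digits compared carry no replicate numbers in their labels, and the macrophage cultures, which do, entered no test. The mark, date and side in the labels do not say which digits share an animal. Some groups share dates, but dates were used only as an earlier and a later period, and fits blocked by single dates were not run. No called change took the opposite sign under any alternative. Changes that were not called did in 93 of 1598 values, and in 193 of 1962 when 1 digit was left out, such as *Vwf* at 14 days in non-regenerative digits, which went from 0.08 to -0.83 without replicate 2 of 14 days. Of 180 counts of called genes under alternatives other than leaving out 1 digit, 159 were unchanged. The DESeq2 test called 1 at 3 hours (*Sele*), 1 at 6 hours (*Vwf*), 2 at 12 hours (*Cdh5*, *Vwf*) and 2 in the F test over non-regenerative times. That F test also called 2 (*Tie1*, *Vwf*) with DESeq2 size factors, without a count filter and in both fits of all 41 digits. The fits of all 41 digits, with and without the period, called 1 at 24 hours (*Vwf*) and 0 late against acute in intermediate digits. limma on normalized TPM called 0 at 12 hours, 0 at 24 hours, 0 in the F test and 0 late against acute in intermediate digits. With both digits that stand apart left out, an alternative chosen after seeing the data, the fit of all remaining digits called 1 at 6 hours, 1 at 24 hours, 0 late against acute and 2 in the F test over non-regenerative times, and the fit of non-regenerative digits alone called 0 late against acute. The date period as a term in fits of 2 groups, also chosen after seeing the data, called 3 at 24 hours against 0 hours in non-regenerative digits (*Cdh5*, *Tie1*, *Vwf*) and 0 between the groups at 0 hours, 24 hours and 14 days. The causes were not tested. Leaving out 1 digit at a time gave 0 to 1 called genes at 3 hours, 0 to 3 at 12 hours, 0 to 3 at 24 hours, 1 to 2 late against acute and 0 to 3 over all times in non-regenerative digits, 0 to 1 in both such tests of intermediate digits, and 0 to 0 in the other comparisons. A digit left alone with 1 other was assumed to vary like the rest. Depth limits *Esam* most, at 13 to 158 counts a digit (median 53), then *Tie1* (median 90) and *Tek* (median 105).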
